A study of Homo sapiens with 8 samples.

Results

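The expression of 10 genes of the ATF4 arm of the integrated stress response was followed in 2 human uveal melanoma (UVM) cell lines whose level of APOBEC3B (A3B, a DNA cytidine deaminase) had been changed. The members were picked by gene symbol, 10 of the 19952 symbols listed in every library. They were ATF4, DDIT3, TRIB3, CHAC1, ASNS, PSAT1, PHGDH, SESN2, DDIT4 and SLC7A11, and each had an FPKM value (sequenced fragments scaled by transcript length and by depth) in all 8 libraries. The 92.1 cells carried either a short hairpin RNA against A3B (shA3B) or a control construct (shCtrl), and the MEL290 cells either overexpressed A3B (A3B OE) or were a negative control (NC), with 2 libraries in each of the 4 groups. Both lines were grown in RPMI medium with serum, and per the study's methods the hairpins and the A3B cDNA were delivered by lentivirus in vectors that carry a puromycin resistance gene. The labels do not say which hairpin the shA3B libraries carry, whether clones or pools of infected cells were used, or whether the replicates came from separate infections or cultures, so a p-value measures only the spread between these libraries.

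In the integrated stress response, kinases that sense a lack of amino acids, unfolded protein in the endoplasmic reticulum (ER), viral RNA or a lack of heme phosphorylate the translation factor eIF2α. Translation as a whole then falls, while the mRNA of the transcription factor ATF4 is translated more, which means that ATF4 activity is set mostly at the protein level and is not read from its mRNA. ATF4, often paired with a C/EBP protein, binds a short element and switches on genes for amino acid synthesis and uptake, for redox control and, under lasting stress, for cell death.

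The element searched was the C/EBP-ATF response element (CARE), written here as TGATGNAA or, on the other strand, TTNCATCA. It was searched from 250 bases before to 50 bases after the start of each gene in the RefSeq promoters of GRCh38.p14. Of the 10 members, 9 had a promoter entry, and SLC7A11 had none. By gene, the element was found for 2 of these 9 (22.2%), ASNS and CHAC1, against 4.46% of the 27305 genes with a promoter entry. The share was 2.78% of the 10342 such genes that reached 1 FPKM in a library. A gene can have several windows and counted if any held the element, and another window of ASNS held none. By window, the share was 3.62% of all 35116. The 2 matches are shown first, each in a stretch of 30 bases with the element in capitals, at chr7:97872458-97872487 for ASNS, a gene of the minus strand, and at chr15:40953251-40953280 for CHAC1. The first base of the element lay at -68 from the start of ASNS and at -209 from that of CHAC1, where the match is on the opposite strand. Both stretches lie within the outer bounds of their genes in GENCODE release 44, which holds longer transcripts that start farther upstream.

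ASNS: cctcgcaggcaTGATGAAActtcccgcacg
CHAC1: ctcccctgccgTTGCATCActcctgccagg

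DDIT4 is shown with the 250 bases before its start (chr10:72273674-72273923, plus strand) because its change was the one called under every alternative tried. SESN2 (chr1:28259268-28259517, plus strand) and PSAT1 (chr9:78296875-78297124, plus strand) are shown because they were called lower in A3B OE cells and, like DDIT4, hold no copy of these letters in the window. A match or its absence describes these letters only.

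DDIT4: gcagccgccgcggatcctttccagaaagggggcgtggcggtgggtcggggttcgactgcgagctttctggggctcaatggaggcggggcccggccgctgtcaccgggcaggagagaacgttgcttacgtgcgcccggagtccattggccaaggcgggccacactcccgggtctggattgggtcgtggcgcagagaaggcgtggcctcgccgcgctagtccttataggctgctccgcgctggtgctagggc
SESN2: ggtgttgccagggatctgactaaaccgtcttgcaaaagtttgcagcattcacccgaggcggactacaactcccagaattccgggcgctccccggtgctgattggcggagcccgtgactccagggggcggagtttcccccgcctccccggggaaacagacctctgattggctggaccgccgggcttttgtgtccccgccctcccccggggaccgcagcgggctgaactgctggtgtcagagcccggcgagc
PSAT1: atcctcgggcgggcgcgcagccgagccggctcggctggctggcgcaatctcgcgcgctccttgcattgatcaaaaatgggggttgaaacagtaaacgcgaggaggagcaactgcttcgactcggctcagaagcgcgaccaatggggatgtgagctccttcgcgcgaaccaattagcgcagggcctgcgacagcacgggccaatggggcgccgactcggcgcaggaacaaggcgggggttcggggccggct

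Most windows of the members were rich in G and C. Over the 9 members, the GC content of the whole window listed first for each gene ran from 52.7% in PHGDH to 77% in TRIB3. These windows held 15 to 38 CpG dinucleotides, and the medians over all windows were 58.7% GC and 14 CpG. PHGDH and ATF4 (57.3%) lay under the GC median.

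The A3B level followed the labels in both lines. APOBEC3B was at 35.9 and 32.3 FPKM in the shCtrl libraries and 1.98 and 2.37 FPKM in the shA3B libraries, and at 2.67 and 2.19 FPKM in NC and 28.4 and 27.5 FPKM in A3B OE. A library held about 17600000 to 31600000 fragments by a rough estimate, and 11389 to 11524 genes reached 1 FPKM. The 8 melanocyte markers were all at 1 FPKM or more in 92.1, with summed levels of 7116 to 8713 FPKM. In MEL290 their sum was 15.2 to 20.7 FPKM, TYR (tyrosinase) was listed at 0 in all 4 libraries, and the only marker at 1 FPKM or more in both NC libraries was MITF. The MEL290 profile thus lacked most of these melanocyte markers, although the study lists MEL290 as a uveal melanoma line. The keratin genes KRT8 and KRT18 stood at 770.2 to 1298 FPKM in MEL290, while the epithelial markers EPCAM, KRT19 and KRT5 were under 1 FPKM in all its libraries. Differential expression was tested on log2(FPKM + 1) with limma within each line, leaving out genes that did not reach 1 FPKM in 2 or more of the 4 libraries, and a gene was called at a Benjamini-Hochberg adjusted p under 0.05 over all genes tested. This scale understates the change of genes with a low FPKM. With 2 libraries against 2, the smallest two-sided p of an exact permutation test of 1 gene is 0.33.

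Overexpression of A3B in MEL290 went with changes in both directions among the members. Of the 10 members, 5 were called, PHGDH and DDIT4 higher and CHAC1, SESN2 and PSAT1 lower, against 17.8% of the 11611 genes tested, 10.3% higher and 7.49% lower. CHAC1 was tested through its NC libraries alone. With 1 FPKM required in every library CHAC1 was not tested, and 4 of 9 members were called, against 17.7% of the genes tested. In the fit on all 10 members, their median log2 fold change was -0.07, and that of all genes tested was 0.0041. The libraries of the groups did not overlap for 6 members, the 5 called and ATF4, which is a share close to the 61.3% of all genes tested. In bulk RNA, a change in the level per cell and a change in the share of cells that express a gene cannot be told apart. Each median and count of members stands for a list chosen with earlier results of these data known.

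PHGDH (chr1:119648411-119744218, plus strand), the enzyme of the first step of serine synthesis from 3-phosphoglycerate, was at 21.3 and 27.1 FPKM in NC and 62.6 and 43.2 FPKM in A3B OE. Both A3B OE libraries were above both NC libraries, although the A3B OE libraries differed from each other by more than the lower of them lay above the higher NC library. PHGDH rose 2.18-fold in mean FPKM, a log2 fold change of 1.08 (standard error 0.19, 95% interval 0.61 to 1.55, adjusted p = 0.016, limma). Without the first A3B OE library, a fit with fewer libraries, the log2 fold change was 0.82 and PHGDH was not called. With no filter, a setting that used all MEL290 libraries, PHGDH was not called either (adjusted p = 0.096, limma). PSAT1 (chr9:78297125-78330093, plus strand), the transaminase of the next step of the same pathway, went the other way. Its values were 30.5 and 27.8 FPKM in NC and 22.9 and 22.1 FPKM in A3B OE, with every A3B OE library lower. PSAT1 fell 1.30-fold, with a log2 fold change of -0.36 (standard error 0.09, 95% interval -0.58 to -0.13, adjusted p = 0.046). It is 1 of the 3 members, with ATF4 and ASNS, that have 4 named pseudogenes each, to which reads could have been assigned.

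DDIT4 (REDD1; chr10:72273919-72276036, plus strand), a stress-induced inhibitor of mTORC1 signalling that glucocorticoids and hypoxia also induce, was the most abundant member after A3B overexpression. It was at 137.6 and 156.4 FPKM in NC and at 233.7 and 219.2 FPKM in A3B OE, and the groups were well apart. DDIT4 rose 1.54-fold, a log2 fold change of 0.62 (standard error 0.08, 95% interval 0.42 to 0.83, adjusted p = 0.0073). With each library left out in turn its log2 fold change stayed between 0.53 and 0.71, with adjusted p-values of 0.00032 to 0.044. SESN2 (sestrin 2; chr1:28259518-28282491, plus strand), a leucine sensor that also restrains mTORC1, through GATOR2, was at 7.39 and 7.11 FPKM in NC and 4.98 and 4.39 FPKM in A3B OE. The A3B OE libraries were thus near the level of 92.1 cells, where SESN2 was at 3.94 to 4.62 FPKM. SESN2 fell 1.55-fold, a log2 fold change of -0.54 (standard error 0.13, 95% interval -0.85 to -0.23, adjusted p = 0.036).

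CHAC1 (chr15:40952962-40956512, plus strand), a γ-glutamylcyclotransferase that breaks down glutathione, had the largest fall of the members in fold. Its values were 1.83 and 1.60 FPKM in NC and 0.639 and 0.815 FPKM in A3B OE, a low level at which every A3B OE library was under 1 FPKM. CHAC1 passed the filter on low values through its NC libraries alone, so a gene of this level was tested only because it was higher there. The ratio of the means was 2.36-fold, and the log2 fold change was -0.65 with a pseudocount of 1 (standard error 0.16, 95% interval -1.03 to -0.27, adjusted p = 0.037) and -1.14 with a pseudocount of 0.1. CHAC1, SESN2 and PSAT1 kept their direction but were not called in any fit that left out 1 MEL290 library and could test them, with adjusted p-values of 0.10 to 0.15 for CHAC1, 0.051 to 0.14 for SESN2 and 0.053 to 0.21 for PSAT1. These fits have 3 libraries, and CHAC1 did not pass the filter when either NC library was left out.

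ATF4 itself (chr22:39519695-39522683, plus strand) was at 151 and 148.8 FPKM in NC and 172.6 and 165.1 FPKM in A3B OE. The groups did not overlap, yet the difference of 0.17 on the log2 scale (95% interval 0.014 to 0.33) was not called (unadjusted p = 0.037, adjusted p = 0.13, limma across all genes). TRIB3 (chr20:362835-397559, plus strand), a pseudokinase that binds ATF4 and AKT, was at 5.94 and 4.98 FPKM in NC and 8.13 and 5.44 FPKM in A3B OE, and the groups overlapped. DDIT3 (CHOP; chr12:57516588-57521737, minus strand), a transcription factor downstream of ATF4 that takes part in stress-induced cell death, was at 12.9 and 17.4 FPKM in NC and 12.6 and 14.6 FPKM in A3B OE. Neither was called, with log2 differences of 0.25 for TRIB3 (95% interval -0.23 to 0.73) and -0.14 for DDIT3 (95% interval -0.53 to 0.25). DDIT3 lies across MARS1 and MBD6 on the other strand, and the library kit does not mark strand, so reads of these genes cannot be told apart where they overlap.

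ASNS (chr7:97851677-97872542, minus strand), asparagine synthetase, was the member whose level differed least, at 7.85 and 8.08 FPKM in NC and 8.03 and 7.89 FPKM in A3B OE. Its log2 difference was -0.0011, with a 95% interval of -0.27 to 0.27. SLC7A11 (xCT; chr4:138164097-138242349, minus strand), the cystine importer that feeds glutathione synthesis, was at 13.4 and 12.9 FPKM in NC and 10.3 and 13.3 FPKM in A3B OE. The second A3B OE library lay inside the range of NC, and the difference of -0.16 (95% interval -0.50 to 0.18) was not called.

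After depletion of A3B in 92.1, no member passed the test. Of the 9 members tested, 0 were called and 0 had an unadjusted p under 0.05 (limma), against 1 gene, APOBEC3B, of the 11605 tested (0.00862%) and 336 genes at an unadjusted p under 0.05. The fit that took the replicate number as a block, the alternative that called the most genes, also called 0 members. The median log2 difference of the 9 members was 0.03. Their libraries did not overlap between groups for 3 of 9, PSAT1 higher and ATF4 and CHAC1 lower in shA3B, beside 28.6% of all genes tested.

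CHAC1 and DDIT3 had the widest differences in 92.1, and neither was called. CHAC1 was at 6.56 and 8.08 FPKM in shCtrl and 6.14 and 5.36 FPKM in shA3B, a log2 difference of -0.30 (95% interval -0.67 to 0.07). DDIT3 was at 7.73 and 5.73 FPKM in shCtrl and 7.51 and 9.88 FPKM in shA3B, and its groups overlapped (0.33, 95% interval -0.08 to 0.74). Neither difference exceeded the spread between libraries by this test. ATF4 was at 218.3 and 234.9 FPKM in shCtrl and 214.1 and 217.4 FPKM in shA3B, and its difference of -0.07 had a 95% interval of -0.35 to 0.21.

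The enzymes and transporter were close between the 92.1 groups. PSAT1 was at 53.3 and 53.7 FPKM in shCtrl and 54.9 and 58.7 FPKM in shA3B (0.08, 95% interval -0.20 to 0.37). ASNS was at 10.6 and 11.97 FPKM in shCtrl and at 10.3 and 13.9 FPKM in shA3B, values that overlapped. SLC7A11 lay between 0.832 and 1.13 FPKM in the 4 libraries, near the limit of the filter.

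TRIB3 (13.3 to 17.5 FPKM), SESN2 (3.94 to 4.62 FPKM) and DDIT4 (3.24 to 4.77 FPKM) also overlapped between the 92.1 groups. Their log2 differences were 0.05, 0.03 and -0.08. PHGDH did not pass the filter in 92.1, being at 0.539 and 0.262 FPKM in shCtrl and 0.599 and 0.0229 FPKM in shA3B. By the rough depth of each library these values stand for about 24.2, 10.7, 27.1 and 1.21 fragments. The shA3B libraries differed from each other by more than either differed from shCtrl, so a fall or a small change of PHGDH in 92.1 could not be seen.

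**Figure D1:**
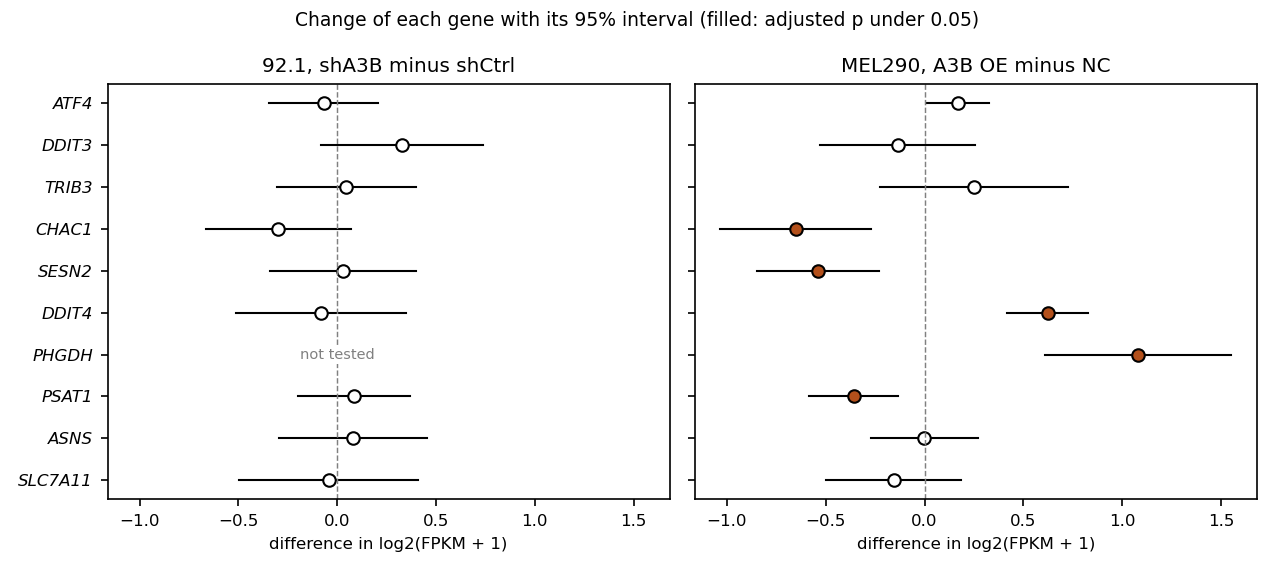
Change of each of the 10 genes on the log2(FPKM + 1) scale after A3B depletion in 92.1 and after A3B overexpression in MEL290, with points at the fitted difference and bars for its 95% interval (limma, 2 libraries per group). Filled points are called, which is the case for PHGDH and DDIT4 above 0 and CHAC1, SESN2 and PSAT1 below 0 in MEL290 and for 0 genes in 92.1. In MEL290, CHAC1 was tested through its NC libraries alone.

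The difference between the effects, the change after A3B overexpression in MEL290 minus the change after A3B depletion in 92.1, was tested in 1 fit over the 8 libraries. Of the 10 members, 0 were called (limma), against 4.40% of the 12697 genes tested, and 4 had an unadjusted p under 0.05. These 4 were PHGDH (1.21), DDIT4 (0.70), SESN2 (-0.57) and PSAT1 (-0.44), with adjusted p-values of 0.11 to 0.13. PHGDH enters this fit through its MEL290 libraries alone. For CHAC1 the difference was -0.36 (95% interval -0.82 to 0.11), and for ATF4 it was 0.24 (95% interval -0.015 to 0.49). Because A3B was raised in one line and lowered in the other, this contrast is large for a gene that follows A3B alike in both, as for APOBEC3B itself (6.55).

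The sign of the depletion effect was therefore also turned, a test chosen after seeing the data, so that both effects are changes with more A3B. By this contrast 1 of 10 members was called, CHAC1, against 5.57% of all genes tested. With more A3B, CHAC1 was lower in MEL290 (-0.65), while in 92.1 the shCtrl libraries were above the shA3B libraries by 0.30, and the difference of these effects was -0.95 (standard error 0.20, 95% interval -1.41 to -0.49, adjusted p = 0.036, limma). CHAC1 was called in 1 of the 8 fits that left out a library, the fit without the first shCtrl library, and adjusted p-values over these fits ran from 0.045 to 0.12. PHGDH (0.96), DDIT4 (0.54) and SESN2 (-0.51) had an unadjusted p under 0.05 and were not called, with adjusted p-values of 0.14 to 0.21, so for these members a different response in the lines was not shown.

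Each member also differed between the control cells of the lines. Between NC cells of MEL290 and shCtrl cells of 92.1, 10 of 10 members were called (limma, 1 fit over the 8 libraries), 5 higher and 5 lower in MEL290, beside 74.9% of all genes tested, 34.8% higher and 40.1% lower. With most genes called, the count says little of the members, and their sizes and directions are given as a description of these lines. Line, vector and control cannot be told apart here. The gene column has another name in the files of each line, so the lines may have been quantified separately.

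DDIT4, PHGDH and SLC7A11 were the members furthest above 92.1 in MEL290. DDIT4 was at 147 ± 13.3 FPKM (SD, n = 2) in NC against 4.24 ± 0.515 FPKM (SD, n = 2) in shCtrl, a ratio of 34.6 and a log2 difference of 4.82 (standard error 0.16). PHGDH had 24.2 ± 4.13 FPKM (SD, n = 2) against 0.401 ± 0.195 FPKM (SD, n = 2), a ratio of 60.5 and a log2 difference of 4.17, and was tested only because it passed the filter in MEL290. SLC7A11 was at 13.2 ± 0.353 FPKM (SD, n = 2) against 1.03 ± 0.026 FPKM (SD, n = 2), which is 12.7-fold. These 3 genes serve separate tasks, the restraint of mTORC1, serine synthesis and cystine uptake. DDIT3 (2.26-fold, log2 difference 1.06) and SESN2 (1.69-fold, log2 difference 0.65) were higher in MEL290 by less.

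ATF4, CHAC1, TRIB3, PSAT1 and ASNS were lower in MEL290 than in 92.1. ATF4 was at 149.9 ± 1.57 FPKM (SD, n = 2) in NC and 226.6 ± 11.7 FPKM (SD, n = 2) in shCtrl, 1.51-fold lower (log2 difference -0.59). CHAC1 was 4.27-fold lower (-1.61) and TRIB3 2.83-fold lower (-1.34). PSAT1 was 1.83-fold lower (-0.86), so that of these consecutive enzymes PSAT1 stood far above PHGDH in 92.1 and near it in NC on this per-length scale of FPKM. In A3B OE, PHGDH was above PSAT1 in both libraries. ASNS was 1.42-fold lower (-0.45, adjusted p = 0.022), and it was not called without the second shCtrl library (adjusted p = 0.11), the first NC library (0.084) or the second NC library (0.066).

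By group means, both groups of 1 line stood above both groups of the other for every member, and the values of the lines overlapped for SESN2 alone. The range of SESN2 in A3B OE (4.39 to 4.98 FPKM) overlapped those of shCtrl (3.94 to 4.62 FPKM) and shA3B (4.23 to 4.52 FPKM). ATF4, CHAC1 and PSAT1 had 4 groups of which no neighbours in the order of means overlapped. In these 3 genes the order ran from shCtrl to shA3B to A3B OE to NC for ATF4, from shCtrl to shA3B to NC to A3B OE for CHAC1, and from shA3B to shCtrl to NC to A3B OE for PSAT1. By summed FPKM, the 10 members together reached 319.9 to 341.7 in shCtrl, 319.7 to 329.6 in shA3B, 389.8 to 412.1 in NC and 496.1 to 536.4 in A3B OE, and most of the sum in every library was ATF4 and, in MEL290, DDIT4.

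Other genes of the same response were counted by lists. Of all genes tested in MEL290, 17.8% were called, 10.3% higher and 7.49% lower, and a count near this share says little of its list. Of the kinases and phosphatases that set eIF2α phosphorylation, 1 of 7 was called in MEL290, PPP1R15A (GADD34), the stress-induced phosphatase subunit that reverses it. PPP1R15A rose from 24.7 and 23.5 FPKM in NC to 37.8 and 34.4 FPKM in A3B OE (log2 fold change 0.56, adjusted p = 0.012). In 92.1 its log2 difference after A3B depletion was -0.19, not called, and with both effects read as changes with more A3B the lines differed by 0.37 (adjusted p = 0.16). The kinase gene EIF2AK3 (PERK), a value picked after it was seen, had a log2 difference of -0.61 that was not called (adjusted p = 0.056). Of 9 transcription factors tested, 1 was called, NUPR1, at 20.8 and 24.0 FPKM in NC and 29.0 and 31.3 FPKM in A3B OE (0.42, adjusted p = 0.044).

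Amino acid genes were called in both directions, as PHGDH and PSAT1 were. The share of all genes tested is again 17.8%, with 10.3% higher and 7.49% lower. In serine, glycine and one-carbon metabolism, 3 of 11 genes tested were called, SHMT1 (0.83) and MTHFD1 (0.50) higher and PYCR1, the last enzyme of proline synthesis, lower (-0.55), with a list median of -0.07. SHMT1, the cytosolic serine hydroxymethyltransferase, rose from 12.9 and 14.8 FPKM to 24.9 and 25.7 FPKM. Of 6 amino acid transporters tested, 1 was called, SLC7A5 (LAT1), lower (-0.36). Among the tRNA synthetases, WARS1 (-0.88) and GARS1 (-0.54) were called lower, and the median of the 18 tested was -0.13. Of 10 further targets of ATF4 or DDIT3 tested, 2 were called, both lower, HERPUD1 (-0.44), a factor of ER-associated degradation, and TNFRSF10B (-0.32), a death receptor.

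ER chaperones and other genes mostly under XBP1 and ATF6, the other arms of the ER stress response, had 10 of 19 called lower and 0 higher in MEL290, with a median log2 fold change of -0.29. Of all genes tested in MEL290, 7.49% were called lower and 10.3% higher. CRELD2 (-0.76), SDF2L1 (-0.63), DNAJC3 (-0.54) and DNAJB11 (-0.52) had the largest falls. HSPA5 (BiP), the main chaperone of the ER lumen, named after its values were seen, fell from 704.3 and 716.1 FPKM to 536.5 and 526.2 FPKM (-0.42, adjusted p = 0.0077).

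Lists for other routes to single members were also counted in MEL290, where 17.8% of all genes tested were called, 10.3% higher and 7.49% lower. Of 11 genes under NRF2, which also drives SLC7A11, 5 were called, with FTH1 (0.96), HMOX1 (0.76), NQO1 (0.69) and FTL (0.32) higher and SRXN1 lower (-0.46), while SLC7A11 was not called. Of 4 glucocorticoid-induced genes tested, a group that shares this inducer with DDIT4, 1 was called, FKBP5 (0.72). By sign, 2 of the 4 were higher and 2 lower, with a median of -0.11 and KLF9 lowest (-0.33, not called). Of 14 mTORC1 and sestrin partner genes tested, 0 were called by limma and 2 had an unadjusted p under 0.05. Of 10 immediate early and heat shock genes tested, 5 were called, HSPA1A (0.67), JUNB (0.58) and HSPA1B (0.45) higher and EGR1 (-0.76) and JUN (-0.35) lower, and HSPA1A and HSPA1B are near-identical copies whose values are uncertain. EGR1, at 1.68 and 1.49 FPKM in NC and 0.481 and 0.561 FPKM in A3B OE, passed the filter through its NC libraries alone. Of the genes named from these lists, SLC7A5, TNFRSF10B, HSPA1B and EGR1 were called in no fit that left out 1 MEL290 library and could test them (adjusted p-values of 0.051 to 0.16), and NUPR1, FTL, JUN and SRXN1 were called in 1 of 4 such fits.

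In 92.1, 0 genes of these 11 lists were called by limma, and those with an unadjusted p under 0.05 included JUNB (-0.35) and DEPDC5 (-0.46), a subunit of GATOR1. The markers of other cell types gave a further view of MEL290, where the keratin genes KRT18 (-0.66) and KRT8 (-0.40) fell. KRT14, at 1.98 and 2.36 FPKM in NC and 0.412 and 0.545 FPKM in A3B OE, was also called lower (-1.10) but was tested through its NC libraries alone, and with 1 library left out it could be tested in 2 fits and was called in 1 of them. Of 2 melanocyte, 2 fibroblast and 1 immune markers tested 0 were called. The summed level of the 7 epithelial markers was 2549 to 2584 FPKM in NC and 1680 to 1898 FPKM in A3B OE, and nearly all of it was KRT8 and KRT18. EPCAM, KRT19 and KRT5 were under 1 FPKM in every MEL290 library. CDH1 was under 1 FPKM in every MEL290 library but the second A3B OE library (2.14 FPKM). The part of the summed level in the changes of the members was not tested.

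The genes with the most similar profile to each member were sought over the 8 libraries, by the root-mean-square (RMS) difference of centred log2(FPKM + 1) values among 12068 genes whose mean reached 1 FPKM. The nearest to DDIT4 was DHRS3, a retinal reductase, with an RMS difference of 0.16 against an RMS of 2.60 for DDIT4 itself, and it was listed at 0 in all 92.1 libraries. The nearest to PHGDH was CD9, a tetraspanin (0.22 against 2.43), at 22.1 and 21.1 FPKM in NC and 45.1 and 37.3 FPKM in A3B OE. The nearest to SLC7A11 was DENND2D (0.081 against 1.38).

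For members with smaller variation the nearest genes were closer. They were MED15 for ATF4 (RMS difference 0.033), RPL23A for ASNS (0.044), EIF4ENIF1 for TRIB3 (0.045), DNAJC5 for SESN2 (0.051), SMIM13 for PSAT1 (0.054), NPAT for DDIT3 (0.082) and TRAF4 for CHAC1 (0.11). None of the 10 nearest genes was another member. The points share libraries, so likeness of profile describes these 8 libraries and mostly the contrast between the lines.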

How the data were processed

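RNA was sequenced from 8 libraries of 2 cell lines, 2 per group, with groups taken from the sample labels. Per the study's methods and processing notes, the authors ran STAR on GRCh38 for alignment and Cufflinks for FPKM, and the deposited values are 1 FPKM per gene symbol and library, with no counts or depth. Tests made for raw reads were therefore not used.

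Values were taken as log2(FPKM + 1). limma 3.58.1 (lmFit, eBayes with a trend, R 4.3.3) was fitted to each line by itself, on genes that reached 1 FPKM in 2 or more libraries of the fit, with Benjamini-Hochberg adjustment over all genes tested and a threshold of 0.05. The control comparison and the difference between the effects used 1 fit over 8 libraries and 4 groups. Tables were made in Python 3.11.15 and figures with matplotlib 3.10.9. The members and gene lists were chosen with earlier results of these data known. The rule for named genes was the 10 members and APOBEC3B, of each list up to 4 called genes with the largest change within a line or else the gene with the smallest p, and the nearest profile to each member. Gene positions, GC content and length came from GENCODE release 44 by symbol (19033 of 19952 matched), and promoters from RefSeq.

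Depth was estimated from the FPKM step that 1 fragment makes in lowly expressed genes with 1 transcript. It is loose, with 18% to 30.2% of the genes used within 5% of the peak. An FPKM of exactly 0 can be a failed estimate. The alternatives tried were no trend, upper quartile scaling, quantile normalization, no filter, a stricter filter, a pseudocount of 0.1, correction for GC content and length, the replicate number as a block, all 8 libraries in 1 fit, and each library left out in turn. The contrast with the sign of the depletion effect turned was added after seeing the data. The values of 1 gene of the lists are not reported here.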

Additional observations from a re-analysis of the deposited data

Results flagged for a closer look

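By a contrast chosen after seeing the data, with the sign of the depletion effect turned, CHAC1 differed between the lines by -0.95 on the log2 scale (standard error 0.20, adjusted p = 0.036, limma, 1 fit over 8 libraries). The depletion effect in 92.1 was not called by itself (-0.30). CHAC1 was at 1.83 and 1.60 FPKM in NC and 0.639 and 0.815 FPKM in A3B OE, and at 6.56 and 8.08 FPKM in shCtrl and 6.14 and 5.36 FPKM in shA3B. The adjusted p was 0.068 with no filter and 0.086 with the replicate block, and it was 0.045 to 0.12 with a library left out.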

How the results depend on the processing

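Each value was compared with its value under each setting, so 1 value is counted many times, and a pair uncalled both times counts as kept. Under the settings that used all libraries, 571 pairs kept their direction and their side of the threshold, 41 lost their call, 1 gained one and 3 changed sign. With libraries left out, 287 held, 62 lost their call, 1 gained one and 16 changed sign. In MEL290 the members called were 1 (DDIT4) of 5 with no filter, with 915 genes called in place of 2065, and 1 to 2 with a library left out, with 809 to 1979 genes called. In 92.1, no trend called 2 genes and no filter 0 by limma (556 at an unadjusted p under 0.05), and leaving out a library called 2 to 9. For the difference between the effects, the stricter filter called 328 genes, removal of the GC and length trend 888, among them 1 member (SESN2, -0.67, adjusted p = 0.031), and leaving out a library 36 to 286, where 559 were called. With the sign of the depletion effect turned, 707 genes and 1 member were called, against 0 members with no filter and 0 with the stricter filter, where CHAC1 was not tested, 492 genes with a pseudocount of 0.1, and 67 to 424 genes and 0 to 1 members with a library left out. The causes were not tested, except that a fit with a library left out has fewer samples.

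The replicate numbers were not shown to pair the libraries, with a correlation of deviations of 0.19 in 92.1 and -0.03 in MEL290 over 2 pairs each. The fit with the replicate block called 37 genes and 0 members in 92.1, 2 members (DDIT4 and PHGDH) in MEL290, 223 genes for the difference, and 312 genes and 0 members with the depletion effect turned.

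Changes of sign concerned members that were not called. They were SESN2 in 92.1 with quantile normalization (-0.019), ASNS in MEL290 with upper quartile scaling (0.0023) and SLC7A11 in the difference with the GC and length trend removed (0.028). With a library left out, the ranges in 92.1 were -0.14 to 0.23 for TRIB3, -0.12 to 0.28 for ASNS, -0.065 to 0.12 for SESN2, -0.30 to 0.14 for DDIT4 and -0.15 to 0.064 for SLC7A11. In MEL290 they were -0.34 to 0.064 for DDIT3, -0.00037 to 0.50 for TRIB3, -0.019 to 0.017 for ASNS and -0.33 to 0.013 for SLC7A11. For the difference they were -0.046 to 0.46 for TRIB3, -0.28 to 0.12 for ASNS and -0.28 to 0.057 for SLC7A11.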

Other observations

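Several lists of related genes differed between the control lines. Between NC cells of MEL290 and shCtrl cells of 92.1, 7 of 8 amino acid transporters tested were called lower in MEL290 (limma), beside 40.1% of all genes. Of these 7, SLC38A2 and SLC43A1 were under 1 FPKM in every MEL290 library and passed the filter through 92.1 alone, so the count is a description only. SLC38A2 (SNAT2), a neutral amino acid transporter and a known ATF4 target, was at 37.8 and 30.2 FPKM in shCtrl, 34.8 and 36.1 in shA3B, 0.152 and 0.860 in NC and 0.194 and 0.364 in A3B OE. SLC3A2, the heavy chain that SLC7A11 and SLC7A5 share, was at 417.0 and 445.7 FPKM in shCtrl and 66.1 and 69.5 FPKM in NC, the opposite order to SLC7A11. GDF15, a secreted stress cytokine downstream of ATF4 and DDIT3, was at 1.53 and 2.49 FPKM in shCtrl and listed at 0 in both NC libraries. SLC38A2, SLC3A2 and GDF15 were chosen after their values were seen. Of the 11 further targets of ATF4 or DDIT3 tested, the list that holds GDF15, 6 were called higher in MEL290 and 3 lower, with a median log2 difference of 0.54. Among the 18 tRNA synthetases, 11 were called higher and 4 lower (median 0.31). The shares of all genes tested were 34.8% higher and 40.1% lower.

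ER chaperones and related genes went the other way from the amino acid transporters, with 13 of 19 called higher in MEL290 and 2 lower, and a median log2 difference of 1.03. Of all genes tested, 34.8% were called higher and 40.1% lower. HSPA5 was at 146.4 and 188.4 FPKM in shCtrl and 704.3 and 716.1 FPKM in NC. Of the serine, glycine and one-carbon genes, 8 of 11 tested were called lower in MEL290 and 1 higher, with a median of -0.47, beside the same shares of all genes.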
